A study of Drosophila melanogaster with 9 samples.

Results

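The odd-skipped family of Drosophila melanogaster comprises 4 zinc finger transcription factor genes, odd (odd skipped), drm (drumstick), sob (sister of odd and bowl) and bowl (brother of odd with entrails limited). They were taken by gene symbol from a matrix of 14797 genes, and all 4 were found. Odd is a pair-rule protein that represses other segmentation genes in the embryo. Bowl is a transcription factor needed for hindgut and foregut formation, for epidermal patterning and for leg joints. Drm is a short family member that binds the protein Lines; Lines otherwise keeps Bowl from accumulating in the nucleus, so Drm relieves Bowl of that inhibition. Sob is the least characterised member and is expressed with odd and drm in the leg joints, where Notch signalling turns on all 3 genes. In blood-forming tissue, odd is used as a marker of the lymph gland and of the pericardial cells beside the heart.

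RNA was sequenced from Kc167 cells, an embryonic line with properties of hemocytes, the blood cells of the fly. Every culture received 15 µg of double-stranded RNA (dsRNA) and was collected on day 7. In the first group, ph+E(z)+CtBP, RNA interference (RNAi) was directed at ph (polyhomeotic, a subunit of Polycomb repressive complex PRC1), at E(z) (the histone methyltransferase of complex PRC2) and at CtBP (a corepressor). The second group, ph+E(z), lacked the dsRNA against CtBP, and the control group received a control dsRNA whose target the labels do not give. Each group had 3 libraries of total RNA. The labels do not say whether these came from separate cultures, so the p-values measure the spread between these libraries, which may be technical.

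The unit is FPKM, fragments scaled by transcript length and by sequencing depth, as deposited by the authors. Depth was read from the lowest values, which are whole multiples of what 1 fragment is worth. Over the libraries that worth varied between 0.922 and 1.09 times its value in ph+E(z) replicate 2, so depth was close to even. E(z) measured 9.85, 8.93 and 9.68 FPKM in ph+E(z)+CtBP cells, 12.1, 8.81 and 8.29 FPKM in ph+E(z) cells and 43.4, 37.4 and 31.2 FPKM in control cells. CtBP measured 49.0, 41.8 and 65.8 FPKM in ph+E(z)+CtBP cells, 205, 221 and 220 FPKM in ph+E(z) cells and 189, 202 and 205 FPKM in control cells. Both targets were therefore low in every library whose label says so. The ph locus holds the near-identical genes ph-p and ph-d, so their values are uncertain. For ph-p they were 7.22, 7.25 and 10.3 FPKM in ph+E(z)+CtBP cells, 7.15, 8.02 and 7.28 FPKM in ph+E(z) cells and 4.64, 18.9 and 18.1 FPKM in control cells. For ph-d they were 3.81, 3.73 and 4.99 FPKM in ph+E(z)+CtBP cells, 4.21, 4.62 and 4.91 FPKM in ph+E(z) cells and 1.26, 5.72 and 4.87 FPKM in control cells. With all libraries, ph-p was not called lower (limma adjusted p = 0.486 for ph+E(z) over control, 0.483 for ph+E(z)+CtBP over control). Nor was ph-d (limma adjusted p = 0.629 and 0.708 for the same comparisons). With 1 library left out, ph-p was called in 1 fit for each of these comparisons and ph-d in 0. The knockdown values of ph-p, 7.15 to 10.3 FPKM, lay above control replicate 1 (4.64 FPKM) and below the other control libraries (18.9 and 18.1 FPKM). Whether ph-p RNA appears depleted thus depends on control replicate 1, and depletion of ph-d RNA is not shown by these values. The library labelled control replicate 1 goes against its label for ph-p and ph-d, and it stands apart elsewhere: ribosomal protein genes took 37.2% of its summed FPKM, against 25.1% to 29.3% in the other 8 libraries. Some genes of the lists below were also far lower in it than in control replicates 2 and 3, though E(z) and CtBP were not. Examples are Hml (8.06 against 173 and 164 FPKM) and GATAd (4.22 against 35.5 and 33.4 FPKM). Main results are therefore also given without it.

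In the genome (build dm6, Ensembl annotation) drm, sob and odd form a cluster on chromosome arm 2L, and bowl lies farther along the same arm. The gene drm (FBgn0024244) spans 3539247 to 3548423 on the plus strand and has 3 annotated transcripts of 1799 to 2572 nucleotides. The gene sob (FBgn0004892) spans 3578013 to 3580769 on the minus strand, with 1 transcript of 2611 nucleotides. The gene odd (FBgn0002985) spans 3604224 to 3606756 on the minus strand, with 1 transcript of 2347 nucleotides. The gene bowl (FBgn0004893) spans 3771700 to 3784121 on the plus strand and has 7 transcripts of 3394 to 3630 nucleotides. The start of sob lies 41.5 kb from that of drm and 26.0 kb from that of odd, and the start of bowl lies 164.9 kb from that of odd. No annotated gene overlaps any of them.

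The 2 genes with testable levels, drm and bowl, followed different patterns. The gene drm was high in both knockdown groups and nearly silent in control cells, whereas bowl was expressed in all libraries and was highest where CtBP was also depleted. At most 4 fragments of odd or sob per library were seen in knockdown cells, and none in control cells. A minimum of 0.5 FPKM in at least 3 of 9 libraries was passed by 8853 genes, among them drm and bowl, while odd and sob fell under it. Because drm stayed under that minimum in all control libraries, it was testable only through the knockdown libraries and could not have been found lower in them.

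**Figure D1:**
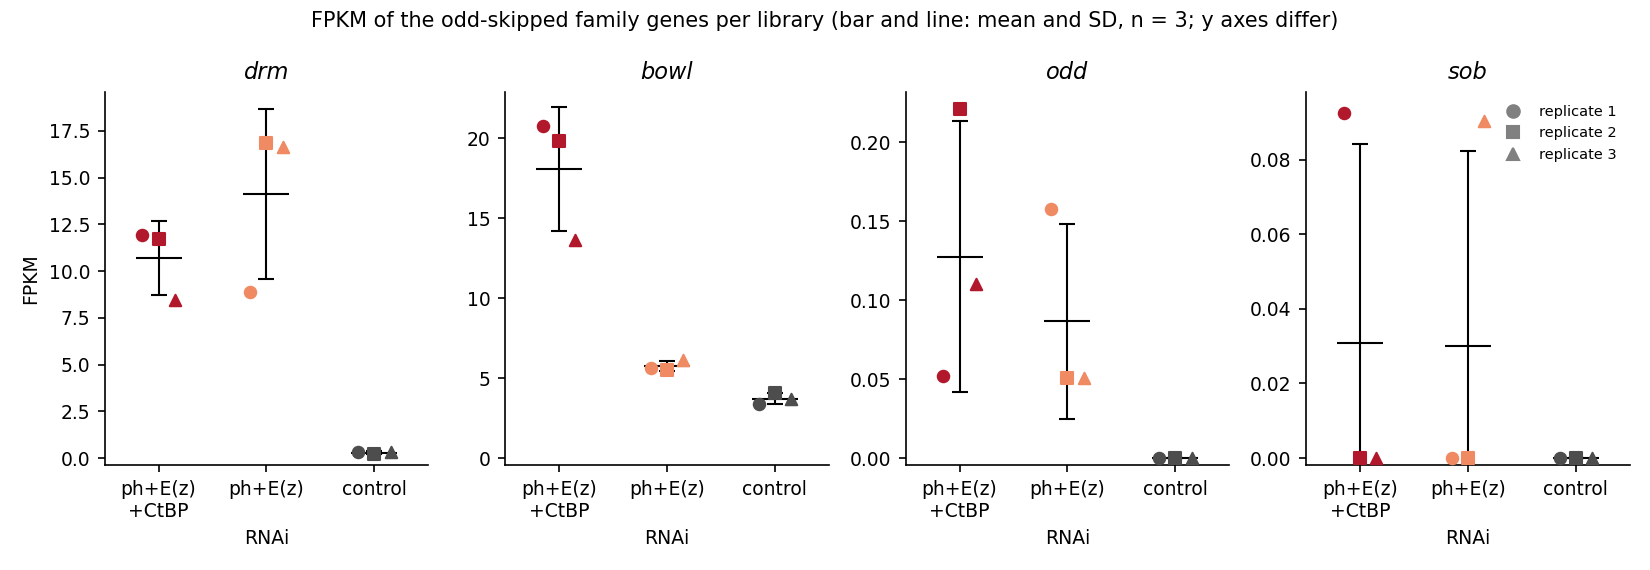
FPKM of drm, bowl, odd and sob in each of the 9 libraries, on axes scaled separately for each gene; points are libraries, shaped by replicate, and horizontal and vertical lines show the mean and SD of 3 libraries. Control libraries lie between 0.212 and 0.346 FPKM for drm and between 3.36 and 4.07 FPKM for bowl, and are all at 0 for odd and sob.

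The binding partner of Lines, drm, measured 12, 11.7 and 8.44 FPKM in the 3 ph+E(z)+CtBP libraries, 8.87, 16.8 and 16.6 FPKM in the 3 ph+E(z) libraries, and 0.346, 0.212 and 0.321 FPKM in the 3 control libraries. All 6 knockdown libraries were far above all control libraries, and the knockdown groups overlapped each other. In fragments these are about 228, 211 and 152 in ph+E(z)+CtBP cells, 167, 328 and 324 in ph+E(z) cells, and 7, 4 and 6 in control cells. The control level is thus a handful of fragments per library. Group means were 10.7 ± 1.97 FPKM in ph+E(z)+CtBP cells, 14.1 ± 4.54 FPKM in ph+E(z) cells and 0.293 ± 0.0715 FPKM in control cells (SD, n = 3 each).

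The ratio of the drm means, ph+E(z) over control cells, was 48.1, and single pairs of libraries gave 25.6 to 79.5. On the log2(FPKM + 0.5) scale, which understates the change of genes this low in one group, the difference was 4.15 ± 0.27 (SE; 95% interval 3.54 to 4.76; limma, adjusted p = 0.000192). In this comparison 3.92% of the tested genes passed the adjusted threshold of 0.05, with 2.58% of tested genes called higher and 1.34% lower, and drm ranked 18 among 8853 by the size of its increase. The rise was as large without the library labelled control replicate 1 (4.20, limma adjusted p = 0.000434). Bulk RNA cannot tell more cells that express drm from more drm RNA per cell.

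Adding CtBP RNAi to ph+E(z) RNAi gave no drm difference beyond the spread between libraries. The ratio of means, ph+E(z)+CtBP over ph+E(z), was 0.759, with single library pairs from 0.501 to 1.35. The log2 difference was −0.34 ± 0.27 (95% interval −0.95 to 0.27; limma adjusted p = 0.667), an interval that holds both lower and higher levels of drm. Against control, drm in ph+E(z)+CtBP cells remained higher by 3.81 ± 0.27 on the log2 scale (limma adjusted p = 0.000208) and by a ratio of means of 36.5. That comparison called 9.73% of the tested genes, 5.58% higher and 4.15% lower.

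The transcription factor that Drm acts on, bowl, measured 20.8, 19.8 and 13.6 FPKM in ph+E(z)+CtBP cells, 5.64, 5.5 and 6.12 FPKM in ph+E(z) cells and 3.36, 4.07 and 3.69 FPKM in control cells. The 3 groups did not overlap, and the largest step lay between ph+E(z)+CtBP and ph+E(z) cells. How many of all tested genes show no overlap was not counted, for bowl or for other genes described so. Some genes that were not called also show none. Group means were 18.1 ± 3.89 FPKM in ph+E(z)+CtBP cells, 5.75 ± 0.324 FPKM in ph+E(z) cells and 3.71 ± 0.358 FPKM in control cells (SD, n = 3 each). With 110 to 612 fragments per library behind them, the bowl values rest on more fragments than the control values of drm.

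The bowl level in ph+E(z)+CtBP cells was 3.14 times that in ph+E(z) cells by the ratio of means, and single library pairs gave 2.23 to 3.78. The log2 difference was 1.55 ± 0.18 (95% interval 1.13 to 1.97; limma adjusted p = 0.00473). Here 3.72% of the tested genes were called, 1.94% higher and 1.77% lower, and bowl ranked 94 by size of increase and 39 by p-value. Without the library labelled control replicate 1 the difference was 1.55, with an adjusted p of 0.00132 (limma).

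Without CtBP RNAi, bowl moved less. The ratio of means of ph+E(z) over control cells was 1.55, with library pairs from 1.35 to 1.82, and the log2 difference of 0.57 ± 0.18 (95% interval 0.16 to 0.99) missed the threshold over all genes (limma, unadjusted p = 0.0128, adjusted p = 0.146). Weighting libraries by their quality brought it past the threshold at a log2 difference of 0.51 (limma with array weights, adjusted p = 0.00579). That fit called 2924 genes in this comparison, against 347 without weights. With quantile normalization the bowl difference was 0.39 (limma adjusted p = 0.294). In the authors' deposited table the q-value of this bowl comparison is 0.0487, just under 0.05, and that of drm is 0.00102. The authors' deposited table gives a q-value of 0.00102 for bowl and of 0.286 for drm when ph+E(z)+CtBP cells are set against ph+E(z) cells. Against control, bowl in ph+E(z)+CtBP cells was higher by 2.12 ± 0.18 on the log2 scale (limma adjusted p = 0.000539), a ratio of means of 4.88.

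**Figure D2:**
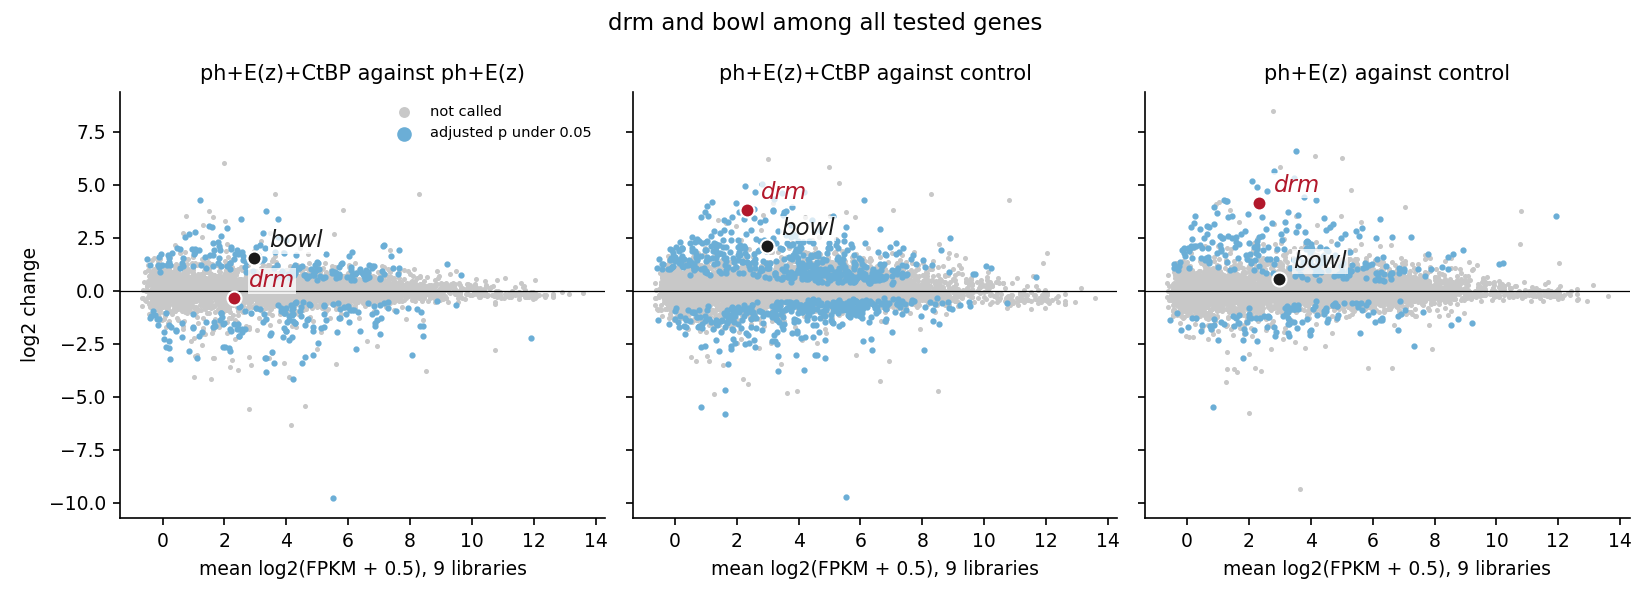
Log2 difference against mean level (log2 scale, FPKM + 0.5) of the 8853 tested genes in the 3 comparisons, with drm and bowl marked. For ph+E(z) over control, drm lies at 4.15 and bowl at 0.57; for ph+E(z)+CtBP over ph+E(z), drm lies at −0.34 and bowl at 1.55.

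The order of the levels within a library therefore depended on the group. Since FPKM is per length, the genes can be set side by side. The bowl level divided by the drm level was 1.74, 1.69 and 1.61 in ph+E(z)+CtBP cells, 0.636, 0.326 and 0.368 in ph+E(z) cells and 9.69, 19.2 and 11.5 in control cells. So bowl was above drm in all ph+E(z)+CtBP and control libraries, and drm was above bowl in all 3 ph+E(z) libraries. The log2 of this quotient was higher by 1.99 in ph+E(z)+CtBP than in ph+E(z) cells and lower than in control cells in both knockdown groups, with an exact two-sided permutation p of 0.1 in each of the 3 comparisons, the smallest that 3 against 3 libraries can give. Summed over the family, the level was 32.9, 31.8 and 22.2 FPKM in ph+E(z)+CtBP cells, 14.7, 22.4 and 22.9 FPKM in ph+E(z) cells and 3.70, 4.28 and 4.01 FPKM in control cells. The ph+E(z) sum was mostly drm, and the control sum was almost all bowl.

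Set among all tested genes, drm had a level above 29.8% to 35.2% of them in ph+E(z)+CtBP libraries, above 30.2% to 42.9% in ph+E(z) libraries and above 2.34% to 6.43% in control libraries. Even its raised level thus lay below the middle of the tested genes. The gene bowl was above 39.3% to 48.9% of tested genes in ph+E(z)+CtBP libraries, above 23.9% to 25.1% in ph+E(z) libraries and above 20.3% to 23.0% in control libraries.

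The pair-rule gene odd was at the limit of detection. Its values were 0.0521, 0.221 and 0.110 FPKM in ph+E(z)+CtBP cells, 0.158, 0.0509 and 0.0509 FPKM in ph+E(z) cells, and it was listed at 0 in all 3 control libraries. Every value is a whole multiple of the worth of 1 fragment and stands for 1, 4 and 2 fragments in ph+E(z)+CtBP cells and 3, 1 and 1 fragments in ph+E(z) cells. Summed over 3 libraries, this is 7 fragments in ph+E(z)+CtBP cells, 5 fragments in ph+E(z) cells and 0 fragments in control cells. A count of 0 over the 3 control libraries allows up to 3 fragments in all, or a mean of 0.0493 FPKM. The mean of 0.128 FPKM in ph+E(z)+CtBP cells was 2.59 times that limit. In ph+E(z) cells the mean of 0.0866 FPKM was 1.76 times it. The 7 and 5 knockdown fragments carry counting error too. These quotients leave that error out, so they are not lower bounds on a difference. The 6 knockdown libraries did not overlap the control libraries, in the direction of drm, but 1 fragment separates the lowest of them from 0.

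The gene sob was weaker still. It was listed at 0 in 7 of 9 libraries, and its other values were 0.0925 FPKM in ph+E(z)+CtBP replicate 1 and 0.0905 FPKM in ph+E(z) replicate 3, each about 2 fragments. Each is the whole count of its group and is under the 3 fragments that a count of 0 over a group allows. A difference in sob was therefore not detectable at this depth. The authors' deposited table left odd and sob untested. With no minimum on the level, the adjusted p of odd was 0.431 for ph+E(z) over control, 0.829 for ph+E(z)+CtBP over ph+E(z) and 0.158 for ph+E(z)+CtBP over control (limma), and that of sob was at least 0.644. The cluster of drm, sob and odd thus held 1 gene at several FPKM and, between 41.5 and 67.5 kb away by start, 2 genes at or near 0 in the same cells.

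Libraries of 1 group differed in the depth of knockdown and in the family's levels. Within ph+E(z)+CtBP, replicate 3 had the most CtBP RNA (65.8 FPKM) and the least bowl (13.6 FPKM) and drm (8.44 FPKM). The groups without CtBP RNAi were mixed for CtBP and bowl. In ph+E(z) cells replicate 2 had the most CtBP RNA (221 FPKM) and the least bowl (5.5 FPKM). In control cells replicate 1 had the least of both (189 FPKM of CtBP, 3.36 FPKM of bowl). Within ph+E(z), replicate 1 had the most E(z) RNA (12.1 FPKM) and the least drm (8.87 FPKM). The other groups ran the other way: replicate 1 had the most E(z) RNA and also the most drm both in ph+E(z)+CtBP cells (9.85 FPKM of E(z), 12 FPKM of drm) and in control cells (43.4 FPKM of E(z), 0.346 FPKM of drm). The part of residual target RNA in these levels was not tested.

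**Figure D3:**
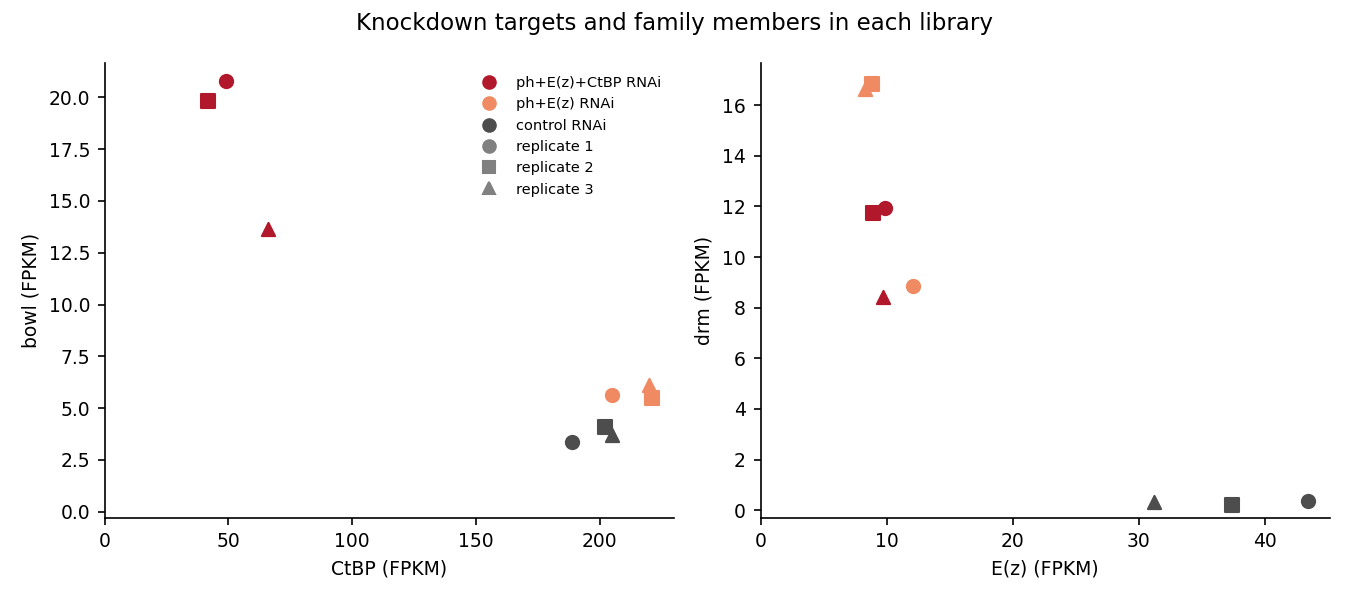
Level of bowl against that of CtBP (left) and of drm against that of E(z) (right) in each of the 9 libraries, in FPKM, coloured by group and shaped by replicate. All libraries with E(z) at 12.1 FPKM or below have drm at 8.44 FPKM or above, and the 3 libraries with CtBP at 65.8 FPKM or below have bowl at 13.6 FPKM or above.

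Of the genes that act with Drm and Bowl, lin and gro could be tested and neither was called. The gene lin (lines) measured 15.8, 12 and 15.5 FPKM in ph+E(z)+CtBP cells, 11.5, 15.0 and 15.3 FPKM in ph+E(z) cells and 14.9, 13.6 and 14.1 FPKM in control cells. Its groups overlapped throughout, with log2 differences of −0.04 for ph+E(z) over control and 0.05 for ph+E(z)+CtBP over ph+E(z). The gene gro (groucho, a corepressor that binds Odd and Bowl) measured 103, 107 and 127 FPKM in ph+E(z)+CtBP cells, 111, 122 and 128 FPKM in ph+E(z) cells and 133, 117 and 118 FPKM in control cells. Neither gene passed the test in any comparison (limma, adjusted p of at least 0.467), nor did either reach an unadjusted p under 0.05. The signal genes wg (wingless) and hh (hedgehog), which are expressed under the pathway in epidermis and gut, were too low to be tested. The gene wg measured 0.456, 0.262 and 0.435 FPKM in ph+E(z)+CtBP cells, 0.5, 0.362 and 0.564 FPKM in ph+E(z) cells and 0.0409, 0.0438 and 0 FPKM in control cells. All its knockdown libraries thus lay above all control libraries, as for drm. The share of all genes separated in this way was not counted. Genes that were not called can also be so separated, such as the blood cell gene srp (limma adjusted p = 0.301 for ph+E(z) over control). The gene hh measured 0.308, 0.218 and 0.434 FPKM in ph+E(z)+CtBP cells, 0.104, 0.148 and 0.101 FPKM in ph+E(z) cells and 0, 0.198 and 0.2 FPKM in control cells, so that its ph+E(z)+CtBP libraries were the highest and the other groups overlapped.

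Genes of the tissues in which the family acts were counted in 4 further lists. Of 19 leg and appendage patterning genes, 11 were tested, and 9 of these rose in ph+E(z) cells over control while none fell (limma), with a median log2 difference of 2.58 against −0.001 over all tested genes, of which 2.58% were called higher and 1.34% lower. The retinal and leg factor dac (dachshund) averaged 7.10 ± 1.87 FPKM in ph+E(z) cells and 0.149 ± 0.0189 FPKM in control cells (SD, n = 3 each). The wing selector gene ap (apterous) averaged 7.90 ± 2.90 FPKM in ph+E(z) cells and 0.158 ± 0.0556 FPKM in control cells. The homeobox gene hth (homothorax) averaged 5.04 ± 1.56 FPKM in ph+E(z) cells and 0.383 ± 0.302 FPKM in control cells. Of the 11 genes, 6 were under 0.5 FPKM in every control library, so that, like drm, they could only be found higher.

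Of 18 lymph gland, heart and pericardial genes, 10 were tested; 7 rose in ph+E(z) cells over control and none fell (limma; median log2 difference 2.83), and again 6 were under 0.5 FPKM in all control libraries. Among them pnr (pannier, a GATA factor of the heart field) averaged 42.8 ± 5.5 FPKM in ph+E(z) cells and 1.72 ± 1.09 FPKM in control cells (SD, n = 3 each). The list also holds the homeotic genes Ubx, Antp, abd-A and Abd-B. The gene abd-A averaged 20.8 ± 8.98 FPKM in ph+E(z) cells and 0.0542 ± 0.0713 FPKM in control cells. In the same comparison Antp rose by 4.26 ± 0.39 and Abd-B by 4.23 ± 0.31 on the log2 scale (SE, limma). Of 11 gut patterning genes, 4 were tested and 2 rose: cad (caudal, a homeobox gene of the posterior gut), by 5.32 ± 0.31 on the log2 scale, and dve (defective proventriculus), by 2.29 ± 0.30; dve was under 0.5 FPKM in every control library. Of 24 embryonic segmentation genes, 7 were tested and 3 rose, cad, opa (odd-paired) and gsb-n (gooseberry-neuro). Of the 7, 3 were under 0.5 FPKM in every control library, opa and gsb-n among them, and could only be found higher. The gsb-n call was lost whichever of the 9 libraries was left out, and the opa call when ph+E(z) replicate 2 or ph+E(z) replicate 3 was, which left 1 of 7. The share called higher over all tested genes in this comparison, 2.58%, applies to these lists too.

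Notch pathway genes act upstream of odd, drm and sob in the leg. Of 18 listed, 13 were tested, and none was called in ph+E(z) cells over control (limma; 3.92% of all tested genes were), while 2 had an unadjusted p under 0.05; 1 was called lower when ph+E(z) replicate 1 was left out. In ph+E(z)+CtBP cells over ph+E(z) cells again none was called (3.72% of all tested genes were), and 4 had an unadjusted p under 0.05. There, 2 were called higher if the library labelled control replicate 1 was left out and 1 if ph+E(z) replicate 1 was. In ph+E(z)+CtBP cells over control, where 9.73% of all tested genes were called, 1 of 13 rose, 1 fell and 6 had an unadjusted p under 0.05. These were neur (neuralized, a ubiquitin ligase for Notch ligands), at 0.65 ± 0.14 on the log2 scale (limma adjusted p = 0.0253), and Ser (Serrate, a Notch ligand), at −1.41 ± 0.33 (limma adjusted p = 0.0341). With 1 library left out, neur passed in 5 of 9 fits and Ser in 3 of 9; both missed without control replicate 3, ph+E(z) replicate 2 and either of ph+E(z)+CtBP replicates 1 and 2, and Ser also when ph+E(z) replicate 3 or control replicate 2 was dropped.

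Adding CtBP RNAi to ph+E(z) RNAi called no leg gene (6 of 11 at an unadjusted p under 0.05; median log2 difference −0.72) and no gut gene (none at an unadjusted p under 0.05; median −0.29), by limma. With the library labelled control replicate 1 left out, 2 leg genes and 1 gut gene were called lower, and with ph+E(z) replicate 1 left out, 3 leg genes were. Of the lymph gland, heart and pericardial genes, 3 of 10 fell and none rose, beside 1.77% lower and 1.94% higher over all tested genes. Among the 3 were the homeotic genes Abd-B (−1.97 ± 0.31 on the log2 scale) and Antp (−2.14 ± 0.39). The count of 3 rests on single libraries. It was 0 without ph+E(z) replicate 2 or replicate 3 and without ph+E(z)+CtBP replicate 1 or replicate 2, and it was 1 without ph+E(z)+CtBP replicate 3. Leaving out ph+E(z) replicate 1 gave 6, and leaving out the library labelled control replicate 1 gave 4, besides 1 gene higher. Of the 7 tested embryonic segmentation genes, 1 was called lower and none higher. This was gsb-n, at −0.96 ± 0.21 on the log2 scale (limma adjusted p = 0.0431). Its call was kept in only 1 of the 9 fits with 1 library left out. In the fit of all 9 libraries, no gene of these lists was called higher in this comparison, in which bowl rose. Whether bowl differs from them was not tested.

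Against control, ph+E(z)+CtBP cells had 8 of 11 leg genes called higher (5.58% over all tested genes), 4 without ph+E(z)+CtBP replicate 1 and 5 without ph+E(z)+CtBP replicate 2. They had 5 of 10 lymph gland, heart and pericardial genes called higher, and 3 without either of those libraries. Of the 7 tested embryonic segmentation genes, 2 were called higher, cad and opa. The opa call was kept in 4 of the 9 fits with 1 library left out. Both gut genes named above, cad and dve, were also called higher, by 4.63 ± 0.31 and 2.33 ± 0.30 on the log2 scale (limma). As stated above, 6 of the 11 leg genes and 6 of the 10 lymph gland, heart and pericardial genes were under 0.5 FPKM in every control library. So were dve and opa. Against control, all of these could only be found higher.

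The cell line's blood cell markers moved with the groups too. Of 13 plasmatocyte (macrophage-like blood cell) markers, none was at 0 in any group. Their summed level ranged from 3.04e+03 to 4.72e+03 FPKM in ph+E(z)+CtBP cells, 1.06e+04 to 2.04e+04 FPKM in ph+E(z) cells and 2.17e+03 to 2.57e+03 FPKM in control cells. Most of that sum in the knockdown cells was 1 gene, Nplp2 (a secreted hemocyte product), at 3.49e+03, 3.99e+03 and 2.23e+03 FPKM in ph+E(z)+CtBP cells, 9.15e+03, 1.83e+04 and 1.87e+04 FPKM in ph+E(z) cells and 1.75e+03, 1.04e+03 and 1.12e+03 FPKM in control cells. In ph+E(z)+CtBP cells over ph+E(z) cells, 8 of 13 fell and none rose (limma; 1.77% of all tested genes were called lower), opposite in direction to bowl. Leaving out 1 library gave between 4 and 10 lower; the count was 4 without ph+E(z) replicate 2 or ph+E(z)+CtBP replicate 1 and 5 without ph+E(z) replicate 3 or ph+E(z)+CtBP replicate 2. In ph+E(z) cells over control, where drm rose, 3 of 13 rose and 1 fell, beside 2.58% higher and 1.34% lower over all tested genes. That split became 1 higher and none lower without ph+E(z) replicate 2 or replicate 3. In ph+E(z)+CtBP cells over control, 5 of 13 fell and none rose (median log2 difference −0.64; 4.15% of all tested genes were called lower), although the sum was higher than in control cells; 8 fell and 2 rose without the library labelled control replicate 1, and 4 fell and 1 rose without ph+E(z) replicate 1 or ph+E(z)+CtBP replicate 3.

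The crystal cell factor peb (pebbled) rose in ph+E(z) cells over control, as drm did, by 2.55 ± 0.28 on the log2 scale (limma). The factor lz (lozenge), which specifies crystal cells, rose by 1.30 ± 0.23 (limma adjusted p = 0.0199), and missed the threshold when control replicate 2, control replicate 3, ph+E(z) replicate 2 or ph+E(z) replicate 3 was left out. Both crystal cell factors were under 0.5 FPKM in every control library and, like drm, could only be found higher. They were the only 2 tested of 7 listed markers of crystal cells and lamellocytes (other blood cells), of which 3 were found in the matrix. The part of a shift in blood cell state in the drm and bowl levels was not tested. No tested marker of neurons, epidermis, germline or gut was called in any comparison (limma), and at most 1 per list had an unadjusted p under 0.05. Of the muscle markers, wupA (a troponin I gene) was called in ph+E(z)+CtBP cells over control, by 1.53 ± 0.35 on the log2 scale (limma adjusted p = 0.0323), in only 3 of the 9 fits with 1 library left out.

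Few neighbours of the 4 genes could be tested. Within 50 kb of the 4 starts, 38 genes are annotated, 18 are in the matrix and 8 were tested. In each comparison 1 of the 8 was called, beside 3.92% of all tested genes for ph+E(z) over control, 3.72% for ph+E(z)+CtBP over ph+E(z) and 9.73% for ph+E(z)+CtBP over control. It was each time the scavenger receptor gene Sr-CIV, which starts 15.2 kb from drm. It measured 2.08, 2.09 and 1.62 FPKM in ph+E(z)+CtBP cells, 7.64, 9.09 and 7.39 FPKM in ph+E(z) cells and 5.23, 3.17 and 3.52 FPKM in control cells. Its groups did not overlap, and it was lowest in ph+E(z)+CtBP cells. For ph+E(z)+CtBP over ph+E(z) it fell by 1.81 ± 0.21 on the log2 scale (limma adjusted p = 0.00428). This call was kept with any of the 9 libraries left out. In that comparison drm differed by −0.34 ± 0.27, and 8 of 13 plasmatocyte markers were called lower. The rise of Sr-CIV in ph+E(z) cells over control was 0.96 ± 0.21 (limma adjusted p = 0.0428). Its fall in ph+E(z)+CtBP cells against control was −0.86 ± 0.21 (limma adjusted p = 0.0363). Each held in only 2 of the 9 fits with 1 library left out. The nearest tested neighbours of drm and odd were Spindly (a mitotic protein, 8.9 kb from drm), with a log2 difference of 0.41 ± 0.31 for ph+E(z) over control, and Dot (a UDP-glycosyltransferase, 12.3 kb from odd), with 0.81 ± 0.39; neither passed the test.

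**Figure D4:**
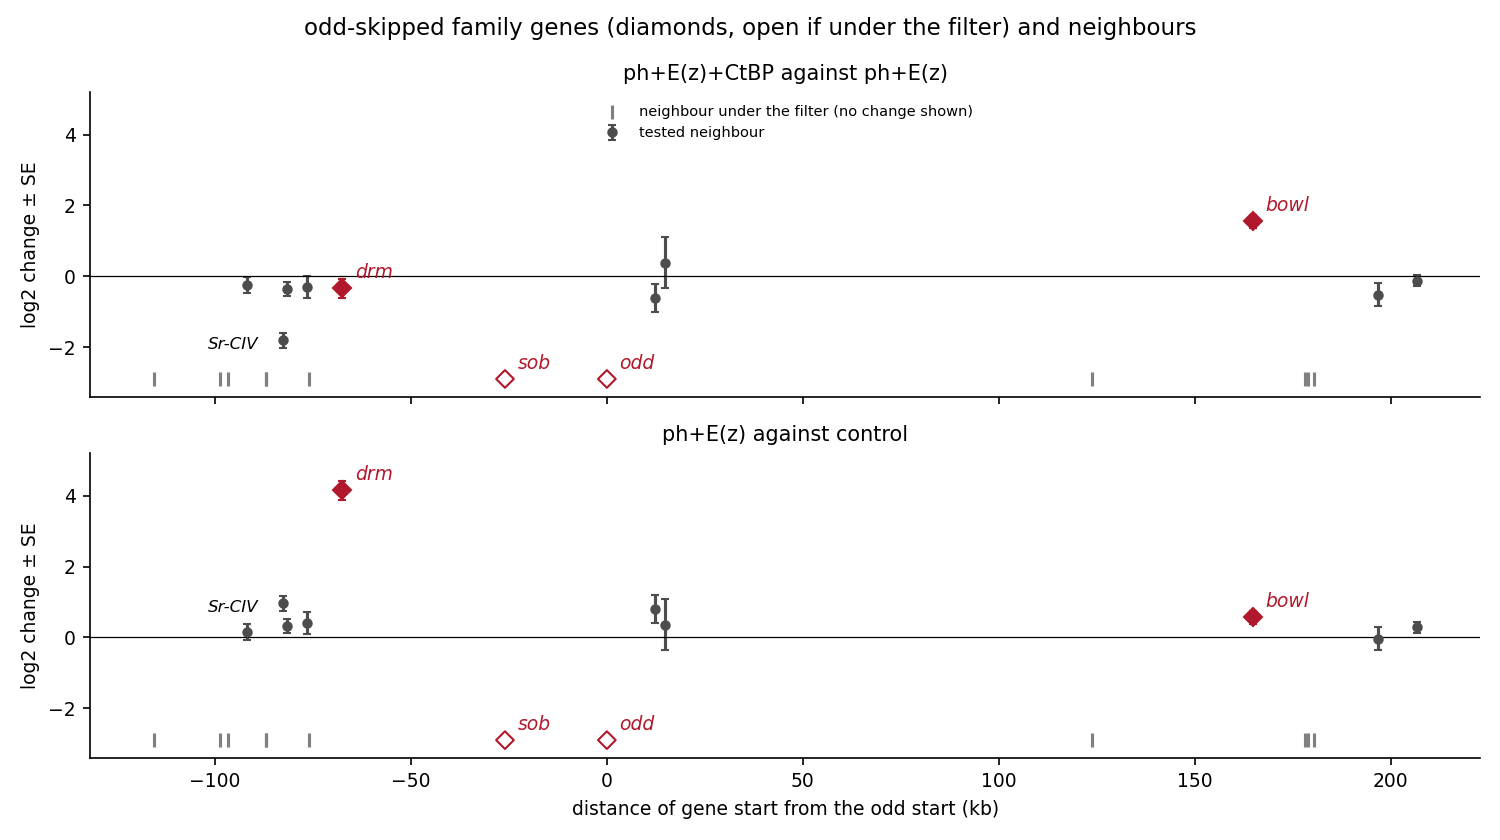
Log2 differences of drm, odd, sob, bowl and the genes within 50 kb of them, with their SE, placed by distance from the odd start in kb, for ph+E(z)+CtBP over ph+E(z) (top) and ph+E(z) over control (bottom); open diamonds and ticks at the foot mark genes under the minimum level, with no difference shown. In the lower panel drm stands at 4.15, while the tested neighbours lie between −0.04 and 0.96.

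The genes whose pattern over the 9 libraries was most like a member's were named by Pearson's r of log2(FPKM + 0.5), as a description, since 3 groups and shared libraries make high values common: 128 tested genes had r above 0.9 with drm and 164 with bowl. These counts include genes with only a CG or CR number, which were left out of the rankings that follow. Closest to drm were rib (ribbon, a tracheal and salivary gland factor; r = 0.997), oc (ocelliless, a head homeobox gene; 0.997), pain (painless, an ion channel; 0.993), cad (0.992) and dac (0.989). Of these, oc averaged 19.4 ± 5.75 FPKM in ph+E(z)+CtBP cells, 30.5 ± 9.84 FPKM in ph+E(z) cells and 0.0969 ± 0.0534 FPKM in control cells (SD, n = 3 each). The gene pain was the only one of the 5 with more than 1 FPKM in control cells, at 3.54 ± 0.585 FPKM.

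Closest to bowl, again with CG and CR numbers left out, were Sara (an endosomal adaptor, r = 0.993), Myo31DF (an unconventional myosin, 0.992) and laza (a lipid phosphate phosphatase, 0.986). Next were lea (the guidance receptor Robo2, 0.983) and Rab14 (a vesicle GTPase, 0.977). Their sizes of change differed widely. The receptor gene lea averaged 3.28 ± 0.669 FPKM in ph+E(z)+CtBP cells, 0.428 ± 0.0225 FPKM in ph+E(z) cells and 0.296 ± 0.157 FPKM in control cells (SD, n = 3 each). Rab14 averaged 111 ± 2.60 FPKM in ph+E(z)+CtBP cells, 89.4 ± 1.98 FPKM in ph+E(z) cells and 77.7 ± 1.51 FPKM in control cells. None of the 5 genes named for drm was among the 5 named for bowl.

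**Figure D5:**
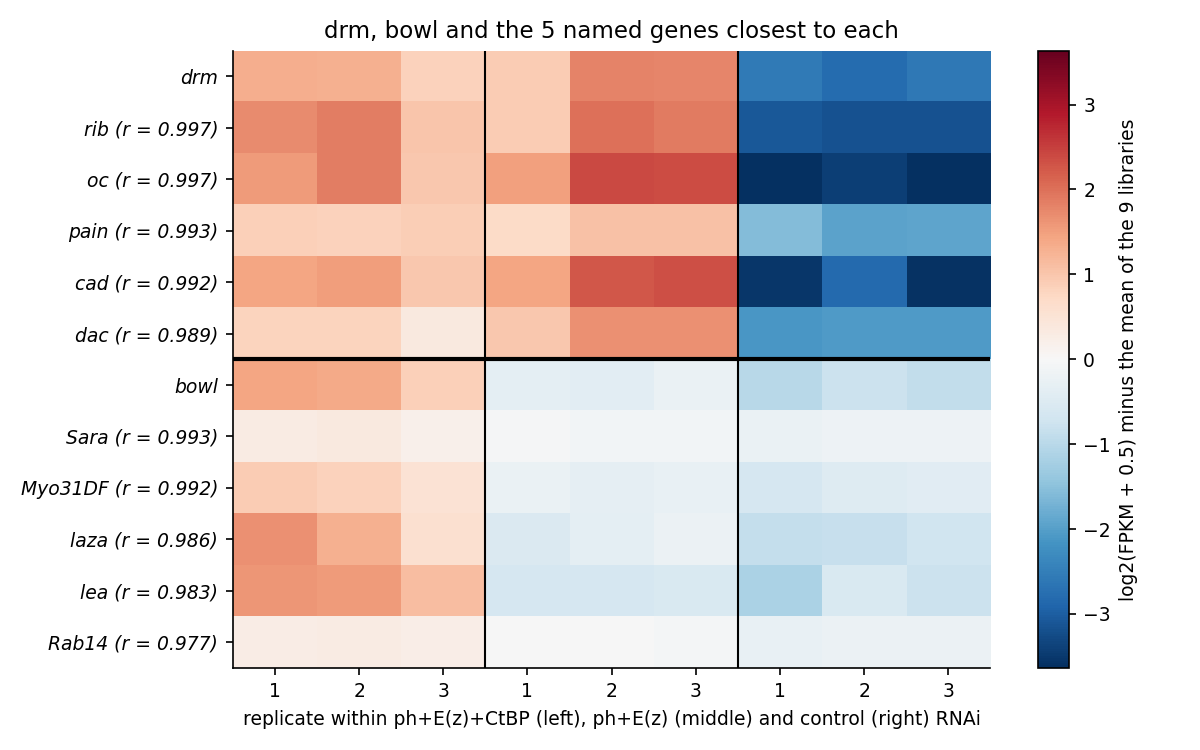
Colour shows the level of drm, bowl and the 5 genes most like each, CG and CR numbers left out, in the 9 libraries. The scale is log2(FPKM + 0.5) after subtracting each gene's mean. Rows are genes and columns are libraries by group. The drm set is below its mean in the 3 control libraries alone, and the bowl set is above its mean in the 3 ph+E(z)+CtBP libraries.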

How the data were processed

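The deposited FPKM values were made by the authors, per the labels for each library; per the submitters' processing notes the tools were TopHat2 2.1.0, Bowtie2 2.2.6, Cufflinks, Cuffdiff and R 3.2.3 with build dm6. Their q-values (p-values adjusted by the authors in the deposited table) are quoted only where named. No read counts were used. Whole steps in the low FPKM values gave the worth of 1 fragment in each library. Floors cover counting error only. The intervals of log2 differences come from the limma fit and measure the spread between libraries. Fragment numbers of drm and bowl are approximate because both genes have several transcripts. Values were set to log2(FPKM + 0.5). Genes with at least 0.5 FPKM in at least 3 of 9 libraries, 8853 of 14797, were fitted with limma 3.58.1 in R 4.3.3, with a mean-variance trend and 3 groups of 3 libraries in 1 fit, with Benjamini-Hochberg adjustment over all tested genes. The 3 comparisons share libraries. Positions come from the dm6 gene annotation, from which the deposited gene ends differ by some bases. Alternatives were other pseudocounts, filters, scalings, weights and fits, a replicate block and leaving out each library; leaving out libraries for the gene lists and Sr-CIV was chosen after seeing the data. Named genes are the family, the targets, the Lines pathway, symbol-bearing or called neighbours, up to 4 genes of a list by smallest adjusted p, and the 5 most like each testable member. The members and lists were chosen with earlier results of these data known. Sequences were not analysed here.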

Additional observations from a re-analysis of the deposited data

How the results depend on the processing

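Over 21 alternatives each, drm and bowl kept direction and call in 125 of 126 results (limma). The exception was bowl in ph+E(z) over control cells, which passed at 0.51 with array weights (adjusted p = 0.00579). For that bowl comparison the log2 difference ranged from 0.51 to 0.64 when 1 library was left out; the cause was not tested. The drm difference in ph+E(z) over control cells ranged from 3.50 to 5.13 over all alternatives, and the bowl difference in ph+E(z)+CtBP over ph+E(z) cells from 1.44 to 1.74, with a highest adjusted p of 0.0352 without ph+E(z) replicate 2. The count of called genes depended more on the fit. For ph+E(z) over control it was 347, against 2924 with array weights, 210 with the 2 groups alone and 108 to 602 with 1 library left out. For ph+E(z)+CtBP over ph+E(z) it was 329, against 2396, 793 and 89 to 1191. For ph+E(z)+CtBP over control it was 861, against 3278, 378 and 298 to 1541. The lowest counts came without ph+E(z) replicate 2 in the first and second comparison and without ph+E(z)+CtBP replicate 1 in the third, and the highest without the library labelled control replicate 1 in all 3. Replicate numbers did not pair the libraries (correlations of same-numbered deviations −0.14 to 0.20; 4 of 9 libraries correlated best with their own number). With the replicate number as a block, 212, 241 and 593 genes were called in the 3 comparisons in that order, and no call of drm or bowl changed. The fitted values of odd follow the pseudocount: at 0.1 FPKM the log2 differences were 0.85 for ph+E(z) over control, 0.27 for ph+E(z)+CtBP over ph+E(z) and 1.12 for ph+E(z)+CtBP over control, and at 1 FPKM the last was 0.17. For sob, 0.1 FPKM gave 0.31 for each knockdown group over control. Depth limits odd and sob, whose values stand for 4 fragments or fewer per library.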
